A study of Mus musculus with 6 samples.

Results

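The genes described here are mostly ion carriers and channels that move chloride, bicarbonate, sulfate and protons across epithelial membranes. They were measured in mouse esophageal and stomach organoids, and include the Clca proteins, which are metalloproteases. They were chosen by name from the non-control probes of the arrays: the Slc4, Slc9, Slc12 and Slc26 carriers, the Clcn chloride channels and exchangers, the Clca proteins, the anoctamins (Ano) and *Cftr*. Slc9a4 and Slc26a9 were left out by that rule. The rule gave 65 genes of 34298 gene names on the arrays, with 101 probes between them, and for each gene the values are those of its brightest probe, taken as the one with the highest average of the 6 arrays. RNA came from organoids, which are 3D epithelial cultures grown in a matrix gel, at passage 0 and labelled as controls. Esophageal organoids of mice 1, 2 and 4 were all harvested on day 8, and stomach organoids of the same mice on day 8, 8 and 7. Per the study's methods, stomach organoids started from corpus glands and esophageal organoids from cells of digested esophagus. Both media held EGF, noggin, FGF-10, N-acetyl-L-cysteine, nicotinamide, a TGF-β receptor kinase inhibitor and a ROCK inhibitor with the supplements B27 and N2. The stomach medium also held WNT3A, R-spondin1 and gastrin, and the esophagus medium held forskolin, which raises cyclic AMP, so tissue and medium cannot be told apart in any comparison below. The labels of the arrays name no strain, sex or age. The methods name female wild-type C57BL/6 mice, reporter strains and an age at euthanasia, without saying which mice were used here.

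Secretory epithelia move fluid by loading chloride at the basolateral membrane with sodium-potassium-chloride cotransport, driven by the sodium pump, and releasing it at the apical membrane through channels such as CFTR and ANO1. Bicarbonate enters with sodium through Slc4 cotransporters and leaves in exchange for chloride through Slc4 and Slc26 exchangers, which in the stomach alkalinizes the mucus layer and, at the basal side of parietal cells, balances acid secretion. Slc9 exchangers expel protons in exchange for sodium, and relatives of these families acidify or ventilate endosomes, Golgi and lysosomes. In the esophagus, a stratified squamous lining, proton and bicarbonate carriers are known for their part in resisting refluxed acid.

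The tissue labels were checked against marker genes. All 7 squamous markers were well above background on every esophagus array and 1 of the 7 on every stomach array. That one was *Trp63*, whose brightest probe was higher in the stomach (log2 difference -1.22, SE 0.27, limma adjusted p = 0.0249). Markers were read by their brightest probe only, so no direction is given for *Trp63* as a gene. By staining, the paper describes its esophageal organoids as positive for P63 protein. All 10 columnar markers were well above background on every stomach array and 2 of the 10 on every esophagus array, *Krt18* (11.57, 10.31 and 11.41) and *Krt7* (7.40, 6.93 and 6.63), both lower there than in stomach. Of the parietal cell proton pump genes, *Atp4a* read 5.76, 6.01 and 6.42 on the stomach arrays of mice 1, 2 and 4 and *Atp4b* stayed at background. *Gif*, which chief cells make in the mouse, read 13.68, 14.11 and 11.31. Of 4 intestinal markers, *Vil1* was at least 278-fold and *Cdx2* at least 18.1-fold higher in the stomach organoids, *Muc2* did not pass (log2 difference -0.43, SE 0.21, limma adjusted p = 0.285) and *Cdx1* was at background on all arrays. Of 4 ionocyte markers, *Ascl3* and *Atp6v0d2* were above background on all stomach arrays and no esophagus array, and *Foxi1* and *Atp6v1g3* were at background throughout. Of 3 immune markers, *Ptprc* was at background on all arrays, while *Cd68* (14.77, 12.94 and 11.80 in esophagus, 11.04, 11.22 and 12.36 in stomach) and *Cd3e* (7.39, 7.23 and 7.55 and 7.35, 7.97 and 8.34) were above it on all 6 and did not pass. Of 4 red blood cell markers, 3 were at background on all arrays. Both neural markers passed toward esophagus, *Tubb3* (9.08, 11.62 and 10.32 in esophagus, 5.74, 5.47 and 6.72 in stomach, log2 difference 4.37, SE 0.61, limma adjusted p = 0.00271) and *Elavl4* (9.30, 9.11 and 8.91 in esophagus, 8.41, 7.82 and 8.32 in stomach, log2 difference 0.92, SE 0.2, limma adjusted p = 0.0228). None of 5 enteroendocrine markers passed: *Ghrl* was above background on all 6 arrays, *Chga* (5.05, 5.19 and 6.69) and *Chgb* (4.97, 4.87 and 5.85) on the stomach array of mouse 4 only, and *Gast* and *Sst* on no array. None of 5 fibroblast and smooth muscle markers passed or cleared background on every array of either tissue, and *Acta2* was above it on the esophagus array of mouse 2 only (4.93, 6.69 and 4.97 over the esophagus arrays). Of 2 endothelial markers, *Pecam1* was above background on all 6 arrays and *Cdh5* on none, and neither passed. The part of neural cells in the members' values was not tested. Between 45.5% and 51.1% of non-control spots of an array were well above background, and 3 arrays per tissue limit the precision. With 3 against 3, the smallest p an exact permutation test can reach for 1 gene is 0.1.

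Of the 65 genes, 15 were higher in stomach organoids and 5 were higher in esophageal organoids at adjusted p under 0.05 (limma, adjusted over all 55681 probes), and 45 did not pass. Over all gene names 14.9% passed (7.15% toward the esophagus and 7.7% toward the stomach), and over names of protein-coding genes 20.3% passed (9.68% and 10.6%). The groups did not overlap for 28 members, 7 higher in esophagus and 21 in stomach, where 31.6% of all gene names and 37.6% of protein-coding names did not overlap. All 20 members that passed were among the 28, and without overlap the sign must be the same in each of the 3 mice. Of the 20, 19 differed at least 2-fold, where 11% of all gene names and 15.5% of protein-coding names passed with a 2-fold difference. With a normexp offset of 50, *Clca4c-ps* (1.70-fold) and *Slc9a9* (log2 difference 0.67) fell under 2-fold. With the mean of all probes of a gene, *Cftr* (log2 difference -0.84) and *Slc9a8* (-0.84) did. By p under 0.05 with a 1.5-fold change, the thresholds the methods name, here taken as an unadjusted p because no adjustment is named, 5 members were higher in esophagus and 17 in stomach (11% and 10.7% of all gene names). The median log2 difference, esophagus minus stomach, was -0.24 over the members (-0.13 with a normexp offset of 50, -0.12 with the mean of all probes of a gene and -0.37 over the 42 left by a filter on dim probes) and 0.03 over all gene names, and 42 of the 65 members were lower in esophagus, as were 15923 of the 34298 gene names. In these bulk samples, fewer cells of a type and less RNA per cell cannot be told apart.

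**Figure D1:**
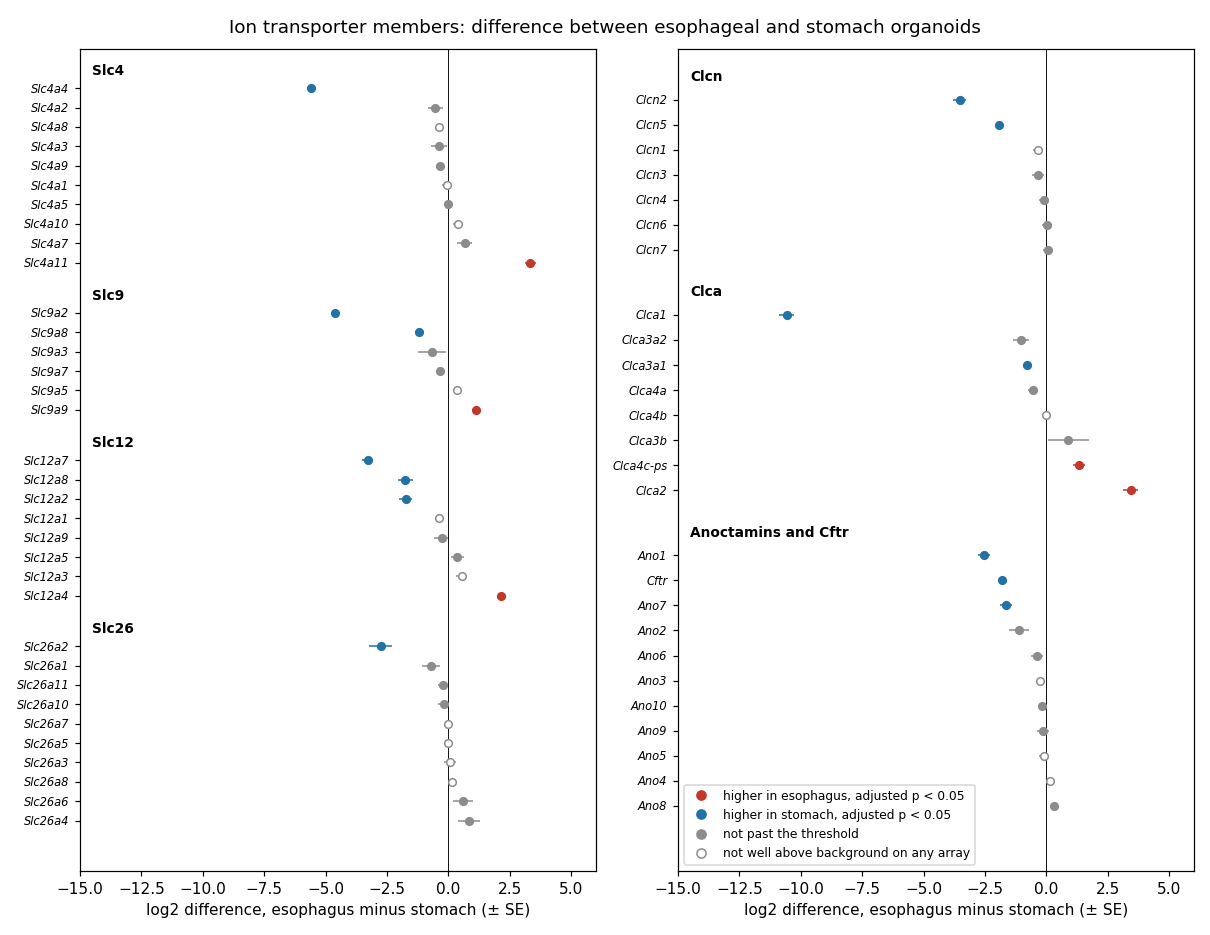
Log2 difference, esophagus minus stomach, with its standard error (x axis), for 60 of the 65 members, grouped by family and ordered within it (y axis). Blue and red points passed adjusted p under 0.05 and were higher in stomach (14 shown) or esophagus (5), grey points did not pass, and open points were not well above background on any array; *Clca1* lies farthest to the stomach side at -10.58.

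Signal set which members could be compared. On all 6 arrays 29 members were well above background, 3 on all esophagus arrays but not all stomach arrays, 10 on all stomach arrays but not all esophagus arrays, 6 on some arrays only and 17 on none. Of the 15 members that were higher in stomach, 10 were above background on all 6 arrays and 5 on no esophagus array. Of the 5 that were higher in esophagus, 2 were above background on all 6 arrays and 3 on no stomach array. For genes at background in a whole tissue, the fold is given as a lower bound, because their value in that tissue is background. For the bound, the log2 mean of the bright tissue was set against a floor for the dim tissue, which on each array was the dimmest probe well above background there, or the gene itself if it read higher. A bound therefore holds for the brightest probe in the deposited values and need not hold under other processing. From scanner intensities corrected with a normexp offset of 50, a constant added before the log, the fold of all 8 bounded members that passed was below its bound, and that value is given beside each. Bounds of marker and partner genes carry the same limit, and no value with that offset is given for them.

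**Figure D2:**
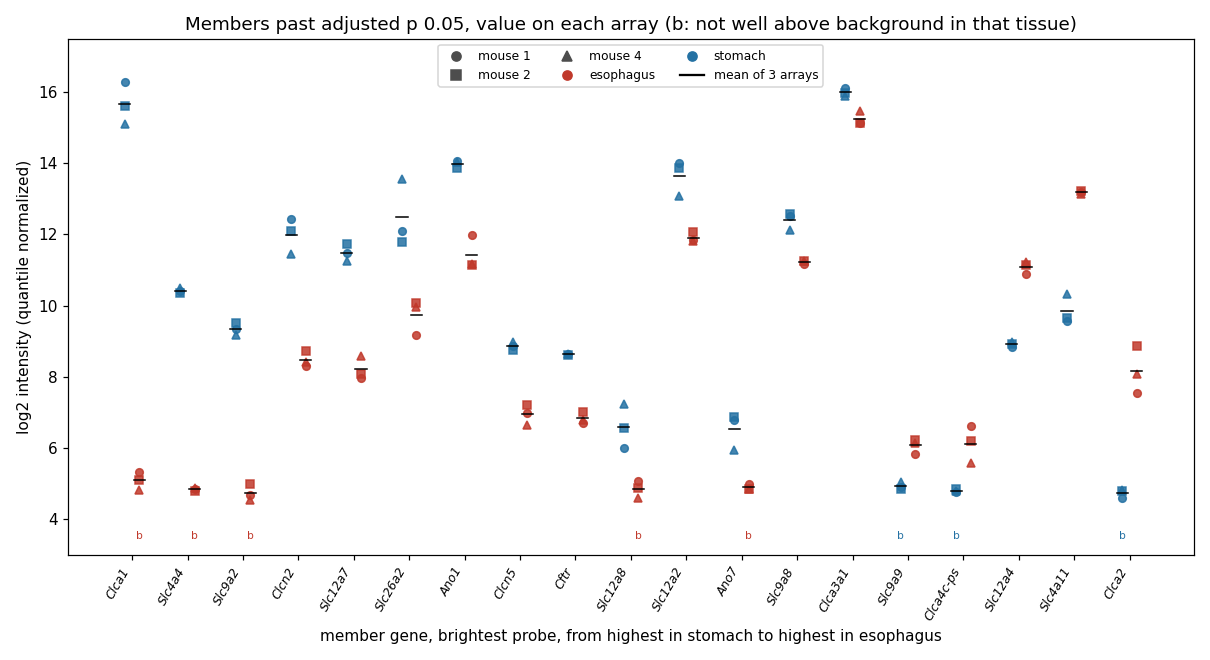
Log2 intensity on each array (y axis) of 19 of the 20 members past adjusted p under 0.05 (x axis), ordered by their difference between tissues, with red for esophagus, blue for stomach, a symbol per mouse and a bar at the mean of 3 arrays. For every one of these genes the 3 arrays of one tissue lie above the 3 of the other, and a letter b marks the 8 genes that were not well above background in the lower tissue.

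The sodium-bicarbonate cotransporter and the borate transporter relative of the Slc4 family went opposite ways. *Slc4a4* (NM_001359211), the electrogenic sodium-bicarbonate cotransporter known as NBCe1, gave log2 intensities of 10.42, 10.35 and 10.49 on the stomach arrays of mice 1, 2 and 4 and of 4.84, 4.80 and 4.88 on the esophagus arrays. By this brightest probe all 3 esophagus arrays were at background, and the stomach was at least 42.7-fold higher (log2 difference -5.58, SE 0.13, limma adjusted p = 2.50e-07, means 4.84 ± 0.04 against 10.42 ± 0.07, SD, n = 3). The fold was 21.5 with the offset of 50, and the log2 difference -3.71 with the mean of all 3 probes, of which 1 was above background on 1 esophagus array and did not pass. *Slc4a11* (NM_001081162, probe at chr2:130509952-130510011, mm9), a distant family member that conducts protons and is mutated in a corneal endothelial dystrophy, read 13.20, 13.23 and 13.13 in esophagus and 9.56, 9.66 and 10.31 in stomach. Its esophagus arrays agreed within 0.05 (SD) and lay 10.1-fold above the stomach (log2 difference 3.34, SE 0.22, limma adjusted p = 3.98e-05). The other 8 Slc4 genes did not pass. Among them the anion exchangers *Slc4a2* (AE2, the basolateral exchanger of parietal cells) and *Slc4a3* (AE3) and the electroneutral cotransporter *Slc4a7* (NBCn1) were above background on all 6 arrays, with log2 differences of -0.52, -0.37 and 0.67 (limma adjusted p = 0.403, 0.554 and 0.243). The red cell exchanger *Slc4a1*, with *Slc4a8* and *Slc4a10*, was at background on all 6 arrays. *Slc4a5* and *Slc4a9*, dim on all arrays, were above background on 2 esophagus and 3 stomach arrays each and gave 0.01 and -0.32. Another *Slc4a9* probe was at background on all stomach arrays and 2 esophagus arrays and passed at no less than 1.65-fold higher in esophagus (limma adjusted p = 0.00704). The mean of both probes gave 0.24, and no direction is given for this gene. Over the 10 genes the median log2 difference was -0.19.

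The *Slc4a4* gene has alternative starts that give proteins with different amino termini, and the 250 bases before both starts are shown because they differ so much in composition. Both are from RefSeq (GRCm38.p6, plus strand), the first at chr5:88887010-88887259 and the second at chr5:89027716-89027965.
Slc4a4 start 1: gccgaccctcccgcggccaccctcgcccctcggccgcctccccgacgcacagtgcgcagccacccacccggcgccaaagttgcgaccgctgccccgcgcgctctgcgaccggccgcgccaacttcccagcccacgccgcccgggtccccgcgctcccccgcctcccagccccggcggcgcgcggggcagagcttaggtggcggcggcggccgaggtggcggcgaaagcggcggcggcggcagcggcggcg
Slc4a4 start 2: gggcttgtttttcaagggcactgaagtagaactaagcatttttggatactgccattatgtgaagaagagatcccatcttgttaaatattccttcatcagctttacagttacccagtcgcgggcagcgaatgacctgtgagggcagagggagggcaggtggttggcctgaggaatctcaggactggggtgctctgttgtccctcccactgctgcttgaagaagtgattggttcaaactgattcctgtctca
The first is 82% G and C with 44 CpG dinucleotides, and the second 48.8% with 3, where the median over all promoters of the table was 52.4%. The arrays do not say which start was used. A pair of *Slc4a4* probes, which overlap by 48 bases (chr5:89663826-89663885 and chr5:89663838-89663897, mm9), both passed, with log2 differences of -5.18 and -5.58. Another probe at chr5:89668602-89668661 read 5.26, 5.44 and 5.49 in esophagus and 5.89, 5.56 and 5.85 in stomach and did not pass (log2 difference -0.37, SE 0.16, limma adjusted p = 0.206).

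Sodium-proton exchangers differed in both directions. *Slc9a2* (NM_001033289, chr1:40825584-40825643), the exchanger NHE2 known from gastric and intestinal epithelium, read 9.36, 9.51 and 9.16 in the stomach of mice 1, 2 and 4 and 4.67, 4.97 and 4.53 in the esophagus. All esophagus arrays were at background, and the stomach was at least 20.9-fold higher (log2 difference -4.62, SE 0.18, limma adjusted p = 2.13e-06), or 10.8-fold with the offset of 50. *Slc9a8* (NHE8, an exchanger of the Golgi and apical membrane, chr2:167302432-167302491) read 12.52, 12.57 and 12.14 in stomach and 11.18, 11.26 and 11.27 in esophagus, a 2.26-fold difference (log2 difference -1.18, SE 0.17, limma adjusted p = 0.00279). With the scanner software's processed signal, scaled to the 75th percentile, in place of the deposited values, *Slc9a8* kept its direction but did not pass. The endosomal exchanger *Slc9a9* (NHE9, chr9:95129265-95129324) went the other way, with 5.84, 6.22 and 6.14 in esophagus and stomach arrays at background (4.91, 4.85 and 5.05), at least 2.14-fold higher in esophagus (log2 difference 1.13, SE 0.16, limma adjusted p = 0.0029). With the offset of 50 the log2 difference was 0.67.

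*Slc9a3* (NHE3), the apical sodium-absorbing exchanger of intestine and kidney, read 5.30, 5.64 and 7.68 in stomach and 5.69, 5.83 and 5.12 in esophagus, with limma's adjusted p at 0.573. The stomach array of mouse 4, harvested a day before the others, held the highest value, and the groups overlapped. These values are of the brightest probe. The other *Slc9a3* probe was at background on all 6 arrays and read 4.69, 4.63 and 4.63 in stomach, without a high value in mouse 4. *Slc9a5* was at background on all arrays, and *Slc9a7*, an exchanger of the trans-Golgi, was above background on 2 stomach arrays with a log2 difference of -0.33 (limma adjusted p = 0.23).

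Among cation-chloride cotransporters, both a sodium-coupled loader and a potassium-coupled extruder of chloride were higher in stomach, while another extruder was higher in esophagus. *Slc12a2* (NKCC1, the basolateral loader of secretory cells) read 14.01, 13.86 and 13.08 in the stomach of mice 1, 2 and 4 and 11.84, 12.08 and 11.81 in the esophagus. The stomach was 3.35-fold higher with no overlap (log2 difference -1.74, SE 0.25, limma adjusted p = 0.00326), and its lowest stomach array was that of mouse 4. *Slc12a7* (KCC4, chr13:73953745-73953804) read 11.49, 11.72 and 11.25 in stomach and 7.95, 8.07 and 8.59 in esophagus. By this brightest probe it was 9.72-fold higher in stomach (log2 difference -3.28, SE 0.22, limma adjusted p = 4.56e-05). Its other probe did not pass (-0.48), and the mean of both gave -1.88. *Slc12a4* (KCC1, the widely expressed volume-regulating cotransporter, chr8:108467493-108467552) read 10.90, 11.15 and 11.23 in esophagus and 8.85, 8.93 and 8.99 in stomach, 4.5-fold higher in esophagus (log2 difference 2.17, SE 0.15, limma adjusted p = 6.26e-05). By their brightest probes, the opposite differences of the KCC pair were each larger than the spread of their arrays. *Slc12a8*, a distant member whose substrate is debated, was at background in esophagus (5.07, 4.88 and 4.59) and read 6.0, 6.55 and 7.23 in stomach, at least 3.06-fold higher (log2 difference -1.75, SE 0.30, limma adjusted p = 0.00798), or 2.05-fold with the offset of 50.

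The orphan *Slc12a9* and *Slc12a5* (KCC2, best known from neurons) were above background on all 6 arrays and did not pass, with log2 differences of -0.27 and 0.37 (limma adjusted p = 0.674 and 0.462). The kidney cotransporters *Slc12a1* (NKCC2) and *Slc12a3* (NCC) were at background on all arrays.

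The 250 bases before the starts of the KCC pair are shown because these genes moved in opposite directions and both hold a GC box, in capitals on the strand printed (GGGCGGGG read from the other strand). They are from RefSeq (GRCm38.p6), *Slc12a7* on the plus strand at chr13:73763410-73763659 and *Slc12a4* on the minus strand at chr8:105966116-105966365, each read 5′ to 3′ along the gene.
Slc12a7: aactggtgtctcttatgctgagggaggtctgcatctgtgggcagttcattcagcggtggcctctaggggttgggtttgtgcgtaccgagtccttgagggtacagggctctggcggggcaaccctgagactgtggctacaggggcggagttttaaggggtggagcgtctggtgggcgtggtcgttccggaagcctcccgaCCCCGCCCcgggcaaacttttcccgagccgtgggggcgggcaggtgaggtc
Slc12a4: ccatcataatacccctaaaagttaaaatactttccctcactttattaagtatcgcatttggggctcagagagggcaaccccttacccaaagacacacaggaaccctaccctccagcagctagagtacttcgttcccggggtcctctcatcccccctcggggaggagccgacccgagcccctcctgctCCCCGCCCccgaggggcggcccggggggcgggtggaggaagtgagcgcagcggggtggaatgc
The GC content was 63.6% for *Slc12a7* and 60.8% for *Slc12a4*. The same GC box was in 16.1% of all 32851 promoters of the table. The pair was chosen for its opposite differences and for holding the word, so nothing is read from the match.

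Of the 10 Slc26 anion transporters, 1 passed. *Slc26a2*, the sulfate transporter whose loss causes chondrodysplasia and which supplies sulfate for glycans such as mucins, read 12.11, 11.80 and 13.57 in the stomach of mice 1, 2 and 4 and 9.17, 10.06 and 9.97 in the esophagus. The stomach array of mouse 4 stood above the other stomach arrays, and the groups did not overlap (6.75-fold, log2 difference -2.76, SE 0.46, limma adjusted p = 0.00681). Without that array the log2 difference was -2.22 and still passed. The sulfate carriers *Slc26a11* and *Slc26a1* and the chloride-bicarbonate and oxalate exchanger *Slc26a6* were above background on all 6 arrays, with log2 differences of -0.21, -0.70 and 0.61 that did not pass (limma adjusted p = 0.644, 0.319 and 0.44). *Slc26a6* read 7.63, 8.93 and 9.38 in esophagus and 8.07, 7.84 and 8.19 in stomach, and passed without the esophagus array of mouse 1 (log2 difference 1.12, limma adjusted p = 0.0147). Pendrin (*Slc26a4*) was above background on the esophagus array of mouse 1 only, at 6.74, 5.44 and 4.68 over the esophagus arrays, without passing (limma adjusted p = 0.334). The intestinal exchanger *Slc26a3*, the gastric parietal cell exchanger *Slc26a7*, the hair cell motor protein *Slc26a5* and *Slc26a8* were at background on all 6 arrays, and *Slc26a10* was above it on 1 stomach array. The family median was -0.01.

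In the CLC family, a surface channel and an endosomal exchanger were higher in stomach. *Clcn2* (chr16:20703250-20703309), the hyperpolarization-activated chloride channel ClC-2, read 12.43, 12.10 and 11.46 in the stomach of mice 1, 2 and 4 and 8.29, 8.73 and 8.41 in the esophagus. The stomach was 11.46-fold higher (log2 difference -3.52, SE 0.26, limma adjusted p = 8.58e-05), and a second probe gave -3.37 (limma adjusted p = 5.30e-05). *Clcn5* (chrX:6736600-6736659), the endosomal chloride-proton exchanger whose loss causes Dent disease in the kidney, read 8.85, 8.75 and 8.97 in stomach and 6.99, 7.21 and 6.65 in esophagus. It was 3.77-fold higher in stomach (log2 difference -1.91, SE 0.18, limma adjusted p = 3.40e-04). The other organellar exchangers above background on all 6 arrays were the lysosomal *Clcn7*, *Clcn4* and *Clcn3*, with log2 differences of 0.07, -0.10 and -0.33 (limma adjusted p = 0.897, 0.849 and 0.461). The muscle channel *Clcn1* was at background on all arrays, and *Clcn6* was above it on 1 stomach array by its brightest probe and on 1 esophagus array by its other probe.

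The Clca proteins, secreted or membrane-bound metalloproteases first taken for calcium-activated chloride channels, held differences in both directions, 2 toward each tissue among 8 genes. *Clca1* (NM_017474, chr3:144667558-144667617), a component of mucus made by goblet and other mucous cells, read 16.30, 15.61 and 15.11 in the stomach of mice 1, 2 and 4 and 5.33, 5.11 and 4.83 in the esophagus. Every esophagus array was at background, and the stomach was at least 1527-fold higher (log2 difference -10.58, SE 0.30, limma adjusted p = 5.34e-07), or 755-fold with the offset of 50. *Clca2* (NM_178697, chr3:144733937-144733996), known from stratified epithelia such as skin, read 7.55, 8.87 and 8.09 in esophagus and 4.59, 4.79 and 4.83 in stomach. Every stomach array was at background, and the esophagus was at least 10.4-fold higher (log2 difference 3.43, SE 0.31, limma adjusted p = 2.52e-04), or 5.23-fold with that offset. The pseudogene *Clca4c-ps* (chr3:144542301-144542360) read 6.60, 6.2 and 5.56 in esophagus with the stomach at background (4.75, 4.85 and 4.78), at least 2.45-fold higher (log2 difference 1.33, SE 0.26, limma adjusted p = 0.0128), or 1.70-fold with that offset. It no longer passed without the stomach array of mouse 1 or of mouse 2. By its brightest probe *Clca3a1* (chr3:144392981-144393040) was bright in both tissues, at 16.13, 15.99 and 15.89 in stomach and 15.13, 15.13 and 15.46 in esophagus. It was 1.7-fold higher in stomach (log2 difference -0.77, SE 0.16, limma adjusted p = 0.0186). It no longer passed under 6 of 15 alternative settings. The other *Clca3a1* probe was far dimmer, at 6.72, 6.74 and 6.05 in stomach and 5.81, 5.64 and 5.42 in esophagus. There it was above background on 1 esophagus array only, so the level of this gene depends on the probe. The brightest probes of these 4 genes lie in the Clca cluster on chromosome 3, on the minus strand, so neighbouring genes of this cluster differed in opposite directions.

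*Clca3a2* was above background on all stomach arrays and 1 esophagus array and did not pass (log2 difference -1.03, SE 0.31, limma adjusted p = 0.081). *Clca3b* read 9.94, 9.27 and 7.21 in esophagus and 6.62, 7.78 and 9.34 in stomach. Its arrays spread widely in both tissues (SD 1.42 and 1.37), the groups overlapped and limma's adjusted p was 0.602. *Clca4b* was at background on all arrays, and *Clca4a* was above it on 2 stomach arrays. These genes are close relatives, and signal of one on the probe of another was not tested.

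Of the apical chloride channels, *Cftr* and *Ano1* were higher in stomach organoids. *Cftr* (NM_021050, chr6:18270974-18271033), the cyclic AMP-gated chloride and bicarbonate channel mutated in cystic fibrosis, read 8.65, 8.62 and 8.64 in the stomach of mice 1, 2 and 4 and 6.70, 7.01 and 6.79 in the esophagus. The stomach was 3.49-fold higher (log2 difference -1.80, SE 0.15, limma adjusted p = 1.39e-04). A second *Cftr* probe, for a predicted transcript, was at background on all 6 arrays, and the mean of both probes gave -0.84. *Ano1* (chr7:151774604-151774663), the calcium-activated chloride channel TMEM16A, read 14.07, 13.86 and 14.04 in stomach and 11.98, 11.15 and 11.17 in esophagus, 5.86-fold higher in stomach (log2 difference -2.55, SE 0.24, limma adjusted p = 3.32e-04). *Ano7* (chr1:95300013-95300072), known from prostate, was at background in esophagus (5.0, 4.83 and 4.85) and read 6.78, 6.87 and 5.94 in stomach, at least 2.91-fold higher (log2 difference -1.64, SE 0.25, limma adjusted p = 0.00447), or 2.09-fold with the offset of 50. *Ano9*, *Ano10* and *Ano8* were above background on all 6 arrays and did not pass, with log2 differences of -0.13, -0.16 and 0.32 (limma adjusted p = 0.821, 0.608 and 0.357). The phospholipid scramblase *Ano6* read 6.01, 6.06 and 5.60 in stomach and 5.0, 5.76 and 5.75 in esophagus and did not pass. *Ano2*, the calcium-activated channel of sensory neurons, was above background on the stomach arrays of mice 1 and 2 (6.62, 5.67 and 4.92) and passed only without the stomach array of mouse 4. *Ano3*, *Ano4* and *Ano5* were at background on all arrays.

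The 17 members above background on all 6 arrays that did not pass had log2 differences from -0.70 to 0.90 and a smallest adjusted p of 0.243. Of these, *Slc26a6* passed without 1 array, as above, and *Clcn3* and *Slc4a7* by a probe other than the brightest. A p that misses the threshold does not show that these genes were equal. Across families, calls in both directions fell in 4 of 7, and Slc26, CLC and the anoctamins with *Cftr* held calls toward the stomach only. In these 3 families 0 members were higher in esophagus at unadjusted p under 0.05 with a 1.5-fold change either. By that rule 11% of all gene names and 14.3% of protein-coding names were higher in esophagus. The difference between families was not tested. Median log2 differences were -0.52 for Slc9, -0.27 for Slc12, -0.10 for CLC, -0.28 for Clca and -0.26 for the anoctamins with *Cftr*.

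Several probes were available for 27 members, and the 36 probes that were not the brightest gave a second reading, given below as log2 differences, esophagus minus stomach. Of 11 such probes for members that passed, 5 also passed in the same direction, 6 did not pass and 0 passed in the other direction. *Clcn2*, *Slc12a8* and *Clca3a1* were each called by a second probe. It gave -3.37 for *Clcn2* and -0.88 for *Clca3a1*, and for *Slc12a8*, again at background on all esophagus arrays, at least 2.67-fold. *Clcn5* had a second probe that overlaps the brightest by 55 bases (-1.77) and another that did not pass (-0.66, limma adjusted p = 0.0535). Second probes of *Slc12a7* and *Slc9a8* leaned to the stomach without passing (-0.48 and -0.51). Among members whose brightest probe did not pass, 3 had another probe that did. These were *Clcn3* (-0.89, limma adjusted p = 0.0186), *Slc4a7* (1.05, limma adjusted p = 0.0127) and *Slc4a9* (at least 1.65-fold, limma adjusted p = 0.00704). The *Slc4a9* probe was above background on 1 esophagus array only, as given above. A further *Slc4a7* probe read 7.67, 7.90 and 14.11 in stomach and 10.89, 10.15 and 10.30 in esophagus, and there the stomach array of mouse 4 stood apart from the other stomach arrays.

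**Figure D3:**
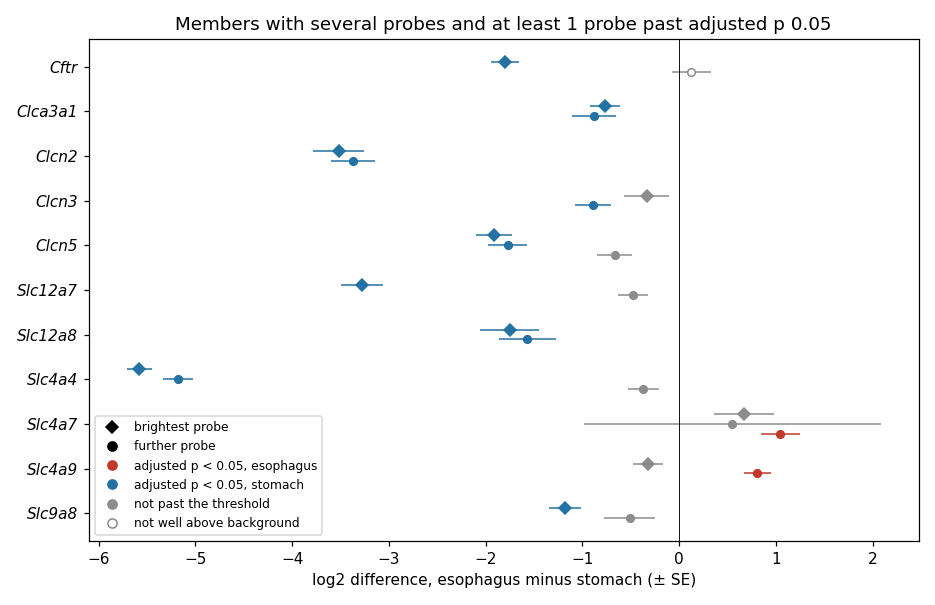
Log2 difference, esophagus minus stomach, with its standard error (x axis), of every probe of reported members with several probes of which at least 1 passed (y axis). Diamonds are the brightest probe of a gene and circles the others; *Clcn2* shows -3.52 and -3.37, whereas *Slc4a4* shows -5.58 and -5.18 from overlapping probes and -0.37 from another.

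Genes that these carriers work with were read from 4 lists, 82 of whose 84 genes were on the arrays. Of the 82, 14 were higher in esophagus and 19 in stomach (limma adjusted p under 0.05), against 7.15% and 7.7% of all gene names and 9.68% and 10.6% of protein-coding names. Values in parentheses are their log2 differences, esophagus minus stomach. Without the stomach array of mouse 1 or of mouse 2 the esophagus count was 7, and without the esophagus array of mouse 2 it was 9. In the list of sodium entry and pump genes 3 of 14 passed toward each tissue. Of 3 sodium pump β subunits, 2 passed, in opposite directions. *Atp1b1* read 15.49, 15.64 and 15.58 in the stomach of mice 1, 2 and 4 and 8.05, 7.98 and 7.80 in the esophagus (log2 difference -7.62, SE 0.14, limma adjusted p = 8.90e-08), and *Atp1b3* read 15.30, 15.44 and 15.42 in esophagus and 12.65, 12.56 and 12.98 in stomach (log2 difference 2.65, SE 0.16, limma adjusted p = 2.96e-05). *Atp1b2* was above background on all 6 arrays and did not pass (log2 difference 0.39, SE 0.25, limma adjusted p = 0.421). The sodium channel subunit *Scnn1b* was at least 3.22-fold higher in esophagus. The FXYD pump regulators that passed went both ways, with *Fxyd2* higher in esophagus (0.91) and *Fxyd3* and *Fxyd5* higher in stomach (-2.0 and -2.43).

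Among 26 partners and scaffolds, 5 were higher in esophagus and 8 in stomach. *Tesc* and *Chp1*, calcineurin-like proteins that bind sodium-proton exchangers, were higher in stomach (-5.52 and -1.17). The scaffolds that tether NHE3 and CFTR to the membrane split, with *Slc9a3r2* higher in stomach (-2.09) and *Slc9a3r1* higher in esophagus (1.03). The kinase genes *Sgk1* (3.58) and *Wnk4* (1.71) were higher in esophagus, and *Wnk2* (-2.39) and the ubiquitin ligase *Nedd4l* (-2.40) in stomach. *Stx1a*, a syntaxin that binds CFTR, was at least 4.36-fold higher in esophagus, and *Pdzd3*, above background on 2 esophagus arrays and no stomach array, at least 1.93-fold higher. *Ezr*, *Ahcyl2* and *Snap23* passed toward stomach (-1.13, -0.98 and -2.27). *Stk39* (SPAK) and *Oxsr1*, kinases that switch Slc12 carriers, did not pass (limma adjusted p = 0.237 and 0.394).

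Other chloride channels gave 0 genes toward the esophagus and 3 of 17 toward the stomach at limma adjusted p under 0.05. At unadjusted p under 0.05 with a 1.5-fold change, 1 of 17 was higher in esophagus and 5 in stomach. The shares by that rule were 11% and 10.7% of all gene names and 14.3% and 14% of protein-coding names. The 3 stomach genes were *Clic6*, at least 352-fold higher in stomach (log2 difference -8.49, SE 0.2, limma adjusted p = 2.13e-07), *Ttyh2* (-1.39) and *Clic4* (-1.15). The volume-regulated channel subunit *Lrrc8a* did not pass (log2 difference 0.11, SE 0.14, limma adjusted p = 0.724). In the cyclic AMP route, 6 of 25 were higher in esophagus and 5 in stomach. The adenylyl cyclase *Adcy6* was higher in stomach (11.11, 11.28 and 10.91 against 6.72, 5.93 and 5.86, log2 difference -4.93, SE 0.25, limma adjusted p = 1.02e-05), and *Adcy3* and *Adcy7* were at least 1.7-fold and 4.06-fold higher in esophagus, where they were above background on 2 arrays each. The phosphodiesterases that degrade cyclic AMP split: *Pde4b* was at least 9.55-fold higher in esophagus, and *Pde4a*, *Pde4d* and *Pde4c* were higher in stomach (-2.77, -1.48 and -0.63). *Creb3l1* was higher in stomach (-5.02), and *Rapgef3* (2.96), *Creb1* (1.16) and *Prkar1a* (0.78) in esophagus. The gastrin receptor gene *Cckbr* did not pass (limma adjusted p = 0.697).

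**Figure D4:**
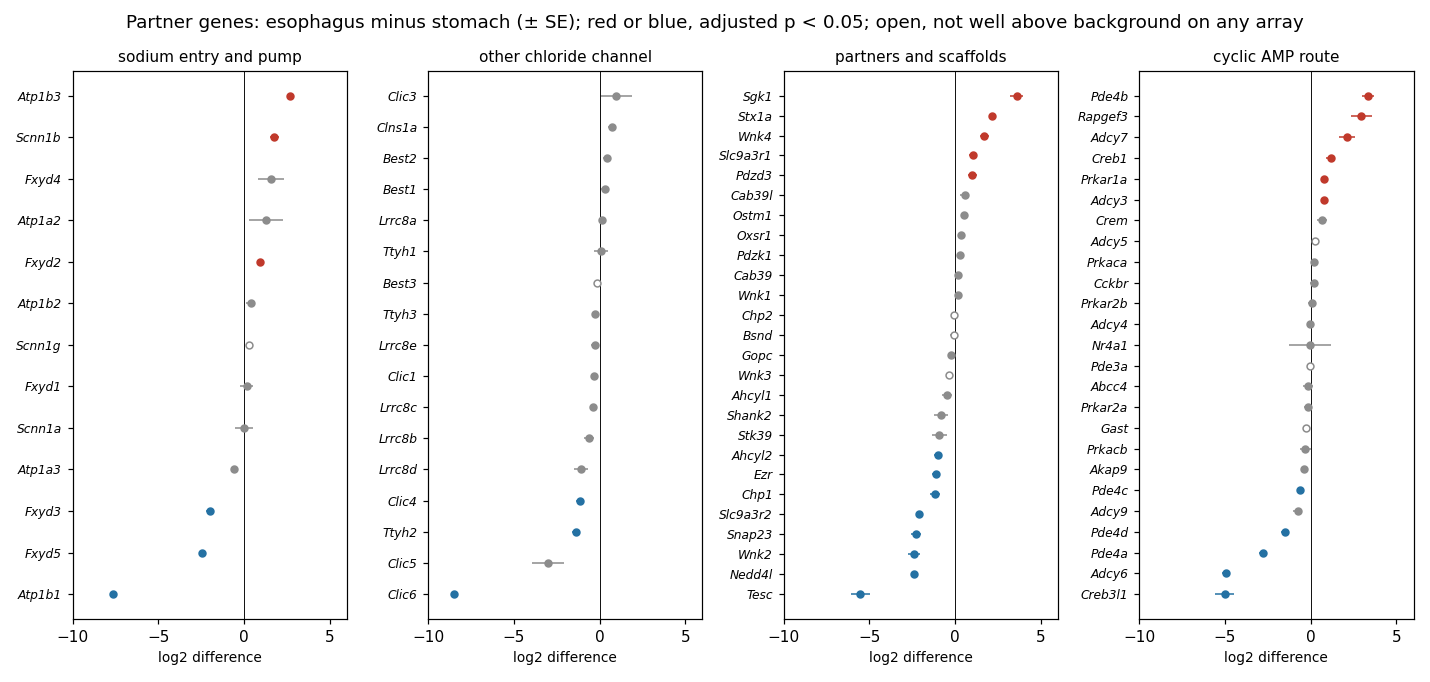
Log2 difference, esophagus minus stomach, with its standard error (x axis), of 81 of the 82 partner genes in 4 lists (y axis). Red and blue points passed adjusted p under 0.05, grey did not, and open points were not well above background on any array; *Atp1b1* at -7.62 and *Clic6* at -8.49 lie farthest to the stomach side.

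Stomach arrays differed among themselves in some members. By their brightest probes, for example, *Clca1*, *Clcn2*, *Slc12a2*, *Slc9a8* and *Ano7* were at their lowest stomach value in mouse 4, and *Slc26a2*, *Slc12a8* and *Slc9a3* at their highest. The other probe of *Slc9a3* did not show this, and that of *Slc9a8* was highest in mouse 4. Markers of gastric and intestinal cell types differed between the stomach arrays as well, in both directions. Of the 10 columnar markers 5 were lowest and 4 highest in mouse 4, and *Tff1* read 17.88, 17.88 and 17.88. On the arrays of mice 1, 2 and 4 *Gif* was 13.68, 14.11 and 11.31, the pit cell mucin *Muc5ac* 15.65, 15.03 and 13.26 and the proton pump subunit *Atp6v0d2* 11.05, 10.66 and 8.79, lowest in mouse 4. The neck cell mucin *Muc6* was 7.39, 8.33 and 9.79, the chief cell zymogen *Pgc* 13.15, 13.94 and 14.66, *Atp4a* 5.76, 6.01 and 6.42 and *Ascl3* 5.97, 5.71 and 6.13, highest in mouse 4. The intestinal genes *Cdx2* (8.73, 8.76 and 9.91) and *Vil1* (13.34, 13.38 and 13.97) were highest there too. The part of these cell types in the members' values was not tested.

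The promoters of 47 members, 13 of them members that passed, were searched on both strands of the 250 bases before each listed start for 8 words, none of which lies within another. The GC box GGGCGGGG was found in 12 of 47 members and 5 of 13 that passed, against 18% of the 27025 genes in the table, counted the same way over all listed starts of a gene. The TATA box TATAAA was found in 12 of 47 and 1 of 13 (14.3% of all genes), and the E-box CACGTG in 9 of 47 and 1 of 13 (6.86%), the last in *Slc12a7* before a start other than the one printed. The other words were in 0 of the 13 that passed. The forkhead word TGTTTAC was found in 3 of the 47 members (3.54% of all genes) and the zinc finger word AGATAAG in 2 (3.17%). The nuclear receptor word CAAAGTCCA was found in 0 (0.451%), the cyclic AMP response element TGACGTCA in 1 (1.77%) and the AP-1 word TGAGTCA in 2 (5.16%). *Clcn2* and *Clca2*, which passed toward opposite tissues, held none of the 8 words in the stretch shown here from RefSeq (GRCm38.p6, minus strand, chr16:20716637-20716886 and chr3:145099107-145099356), printed for their difference in composition, 66% G and C against 52.8%.
Clcn2: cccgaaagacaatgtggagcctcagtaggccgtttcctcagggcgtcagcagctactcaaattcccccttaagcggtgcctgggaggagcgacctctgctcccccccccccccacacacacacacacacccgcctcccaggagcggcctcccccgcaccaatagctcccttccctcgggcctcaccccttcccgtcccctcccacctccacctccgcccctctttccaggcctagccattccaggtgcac
Clca2: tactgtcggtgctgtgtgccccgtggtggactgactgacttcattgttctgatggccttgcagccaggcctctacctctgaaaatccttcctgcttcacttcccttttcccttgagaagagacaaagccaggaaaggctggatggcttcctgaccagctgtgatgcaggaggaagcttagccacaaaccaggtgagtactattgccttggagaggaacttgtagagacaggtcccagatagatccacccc
A match describes the letters of the window, and no match says that the letters are not in it.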

How the data were processed

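RNA of 6 organoid samples was hybridized by the authors to single-color Agilent SurePrint G3 Mouse arrays and quantified in Feature Extraction 11.5.1.1. For each spot the intensity is in the deposited scanner files. The deposited log2 values, made by the authors by background correction and quantile normalization, were used as main values. Normexp with an offset of 15, then quantile normalization of median intensities, rebuilt them with a median absolute difference of 0.00433. Their 2029 empty cells are the 2029 spots marked as outliers. Slides were 2, with 5 arrays on one and the esophagus array of mouse 4 on the other.

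Spots of a probe were averaged, and in R 4.3.3 with limma 3.58.1 lmFit and eBayes compared 3 esophagus with 3 stomach arrays without a block. P-values were adjusted over 55681 probes (Benjamini-Hochberg) and called under 0.05. The script was tested on simulated data. Positions are those of the files (mm9); whether a probe lies in a coding exon or UTR was not examined. All 65 member names matched a RefSeq symbol (62 by accession). Alternatives were scanner intensities with normexp offsets of 16 and 50, the software's processed signal scaled to the 75th percentile, outlier-marked spots kept, a filter on dim probes, the mean of a gene's probes, trended robust variances, the mouse or slide as a block, and each array left out. Same-numbered arrays come from the same mouse per the labels. Their deviations from tissue means correlated at 0.02, 0.01 and -0.01, against -0.07 to 0.04 between mice.

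The members, the partner and marker lists and the tests were chosen with earlier results of these data known. Some members and partner genes are counted in totals but not reported here by name. Array values are given for the other members that passed or that were above background in one whole tissue and in no array of the other. Up to 3 others per family above background on all arrays are given by smallest difference, with single arrays that stand apart added after their values were seen. Partners are named where they passed, and a few others for their role.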

Additional observations from a re-analysis of the deposited data

How the results depend on the processing

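Arrays are named here by tissue and mouse. Of the 20 members that passed, 16 passed under all 15 alternatives and all 20 kept their sign. Of the 45 that did not pass, 19 changed sign under some alternative, such as Slc4a9 (0.24 with the mean of all probes) and Slc9a3 (0.08 without stomach 4). Calls ran from 4 to 6 toward esophagus and from 14 to 16 toward stomach. With the replicate block, the mouse as a pairing term, 5 and 14 members passed, and the log2 difference of Clca3a1 (-0.77) had limma adjusted p = 0.0545. That gene was also lost with the processed signal scaled to the 75th percentile and without stomach 1, stomach 2, esophagus 1 or esophagus 2, Clca4c-ps without stomach 1 or 2, and Slc9a8, for example, with that processed signal, which moved the median of all genes to 0.19. Gained were Ano2 without stomach 4, Clca3a2 in 3 settings, Clca4a and Slc9a7 with the processed signal, and Slc26a6 without esophagus 1. The members' median of -0.24 was -0.13 with an offset of 50, -0.37 over the 42 members left by the filter on dim probes, and -0.12 with the mean of all probes. The partner count toward esophagus, 14, was 7 to 15 with an array left out. Genes at background in one tissue moved in size: Slc4a4 ran from -8.38 to -3.71, Slc9a2 from -7.06 to -3.43, Clca1 from -13.24 to -9.56, Clca2 from 2.39 to 6.36, Ano7 from -4.38 to -1.07, Slc12a8 from -4.29 to -1.04, Clca4c-ps from 0.76 to 3.55 and Slc9a9 from 0.67 to 2.96. With the mean of all probes, Slc12a7 was -1.88 and Cftr -0.84. The slide as a block (5 and 15 members) gave the differences found without esophagus 4, which is alone on its slide.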
